A study of Mus musculus with 21 samples.

Results

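The AP-1 and immediate early genes described here are Fos, Fosb, Fosl1, Fosl2, Jun, Junb, Jund, Egr1, Atf3 and Ier2. They were taken by gene name from the 22050 entries of the expression table, all 10 were found there, and all 10 were among the 12782 genes with enough reads to be tested. Their levels were compared, in 8 mRNA-seq libraries, between GFP+ keratinocytes from mice given 6 months of p16 induction and GFP+ keratinocytes from control mice. Control mice were K5-rtTA/tet-GFP and p16 mice were K5-rtTA/tet-GFP/tet-p16, on the same mixed FVB, C57Bl and 129sv background. Both received doxycycline from the age of 3 weeks, so the controls also carried the K5-driven activator, GFP and the drug. The paper used the keratin 5-driven activator to switch the transgene on in the basal epidermis, and the induced p16 is the human protein. Each library held about 80000 GFP+ cells from the back skin of 3 pooled mice, sorted after cells with fibroblast, immune or endothelial surface markers had been gated away, and there were 4 libraries per group. The methods describe overnight trypsin, scraping, filtering, staining and sorting before RNA extraction. The methods state that the replicates came from several independent experiments and that control and p16 mice came from the same families and were kept and treated together. The experiment of each library, sort order and sort duration are not given in the sources used here, and 13 further samples of a second profiling were not analysed here.

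AP-1 is a pair of bZIP proteins, usually 1 from the Fos family (Fos, Fosb, Fosl1, Fosl2) and 1 from the Jun family (Jun, Junb, Jund). Fos proteins bind DNA only with a partner, whereas Jun proteins can also pair with each other and with Atf3, a stress-induced bZIP factor that often represses. Fos, Fosb, Jun, Junb, Egr1, Atf3 and Ier2 are immediate early genes, which are transcribed within minutes of growth factors, stress or wounding without new protein synthesis, and they are widely known to be induced while tissue is dissociated. In the epidermis AP-1 takes part in proliferation, differentiation and the response to wounding.

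Induction of Fos and Jun is known to use cyclic AMP response elements and related sites near their starts, among other elements, so the 110 bases before the start are shown for the 5 members in which such a site was found in the RefSeq window of 250 bases before to 50 after the start (GRCm38.p6, each read 5′ to 3′ on the strand of the gene). Capitals mark TGACG, the core of a cyclic AMP response element, on either strand, or in Jun TGACATCA, the variant element bound by Jun and Atf2.
Fos (chr12:85473780-85473889, plus strand): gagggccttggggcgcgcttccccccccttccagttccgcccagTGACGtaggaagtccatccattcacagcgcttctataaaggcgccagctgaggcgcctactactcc
Fosb (chr7:19310046-19310155, minus strand): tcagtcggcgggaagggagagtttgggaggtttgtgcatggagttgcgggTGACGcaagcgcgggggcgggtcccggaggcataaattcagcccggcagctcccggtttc
Jun (chr4:95052223-95052332, minus strand): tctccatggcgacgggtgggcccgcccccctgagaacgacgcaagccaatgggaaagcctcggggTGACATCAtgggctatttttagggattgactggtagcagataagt
Junb (chr8:84978749-84978858, minus strand): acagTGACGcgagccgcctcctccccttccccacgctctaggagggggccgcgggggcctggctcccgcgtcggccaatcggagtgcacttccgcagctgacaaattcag
Atf3 (chr1:191183334-191183443, minus strand): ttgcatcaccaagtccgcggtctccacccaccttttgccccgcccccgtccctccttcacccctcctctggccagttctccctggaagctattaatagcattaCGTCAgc

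The RefSeq table held a window for 7 of the 10 members, and those of Fosl1, Egr1 and Ier2 were not found in it. TGACG lay in 4 of the 7 windows and in 20.8% of the 32851 windows of the table. Fos held it from -66 to -62 and again from -129 to -125, Fosb from -60 to -56, Junb from -106 to -102, and Atf3 on the other strand from -7 to -3, counted from the start. TGACATCA lay in Jun from -45 to -38 and in 3.62% of windows. The full element TGACGTCA, which contains TGACG and was in 1.79% of windows, the AP-1 site TGAGTCA (5.20%) and the CArG box of serum response factor (1.63%) were in 0 of the 7. The Atf3 window belongs to a start inside the annotated gene. A match describes letters only.

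The libraries had between 1760953 and 3414362 reads on genes. The deposited values are read counts divided by a size factor, called normalized read counts below, and they were whole multiples of 1 read for 100% of values. In the library labelled p16 replicate 1 the human CDKN2A transgene stood at 1.6, from 2 reads, within the control range of 0.7 to 2.5. The other p16 libraries had 10.1, 16 and 7.4, from 13, 18 and 9 reads. The library labelled p16 replicate 1 is named by its label throughout, and values without it are given beside the results that it moves. Over all genes p16 replicate 4 stood apart from the rest of its group, with a chi-square per gene of 6.75 to 8.96 in pairs that held it and 3.05 to 3.31 in the other p16 pairs. Basal keratinocyte markers such as Krt5 and Krt14 were abundant in every library, with a sum over 7 markers of 31881 to 52882 in control and 32056 to 36675 in p16 libraries. The 7 markers of differentiated keratinocytes summed to 5985.6 to 8372.7 and 6430.4 to 9833.7. Of these 1 was called higher and 2 lower, and of the basal markers 0 were called higher and 1 lower. Marker sums of 3 other lineages did not overlap between the groups. The sum over 9 hair-follicle stem-cell markers was 2973 to 4075 in control and 1277 to 2733 in p16 libraries, and 6 of the 9 were called lower. On the log2 scale 8 of the 9 were lower in p16 and 1 was higher. For 7 sebaceous markers it was 1613 to 1957 and 630.0 to 934.5, with 5 called lower. Fibroblast markers summed to 10.8 to 27.3 and 42.8 to 220.7, with Lum at 0 in every library. Of the 5 tested fibroblast markers 3 were higher and 2 lower in p16 on the log2 scale, and only Dcn was called, as higher. In the library labelled p16 replicate 1 these 3 sums were 2198, 630.0 and 96.0, each outside the control range. The sums for 6 melanocyte markers, 126 to 503 and 48.4 to 137.4, overlapped, with 2 called lower. T-cell markers summed to at most 18.0, with Cd8a at 0, and endothelial markers to at most 11.2, with Cdh5, Kdr and Emcn at 0. Langerhans and myeloid markers summed to 1083.2 to 1304.5 and 756.4 to 1100.2, with Lyz2 at 0 and none called. In these bulk samples fewer cells of a type and less RNA per cell cannot be told apart, and the part of cell composition in the values below was not tested.

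No member passed the test of a difference between p16 and control keratinocytes. In limma on log2(normalized value + 1), with Benjamini-Hochberg adjustment over all 12782 genes, 0 of the 10 members were called at an adjusted p under 0.05, where 3.86% of all genes were called (1.24% higher and 2.61% lower). None of the 10 had an unadjusted p under 0.05, which 15.9% of all genes had. edgeR and DESeq2 on the recovered reads also called 0 of 10, where they called 4.29% and 4.27% of the genes they tested. The values of the groups overlapped in 10 of 10 members, whereas 9.83% of all tested genes had groups that did not overlap. The median log2 fold change of the members was -0.08, and that of all tested genes was -0.0027. Several members differed widely between libraries of the same group.

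**Figure D1:**
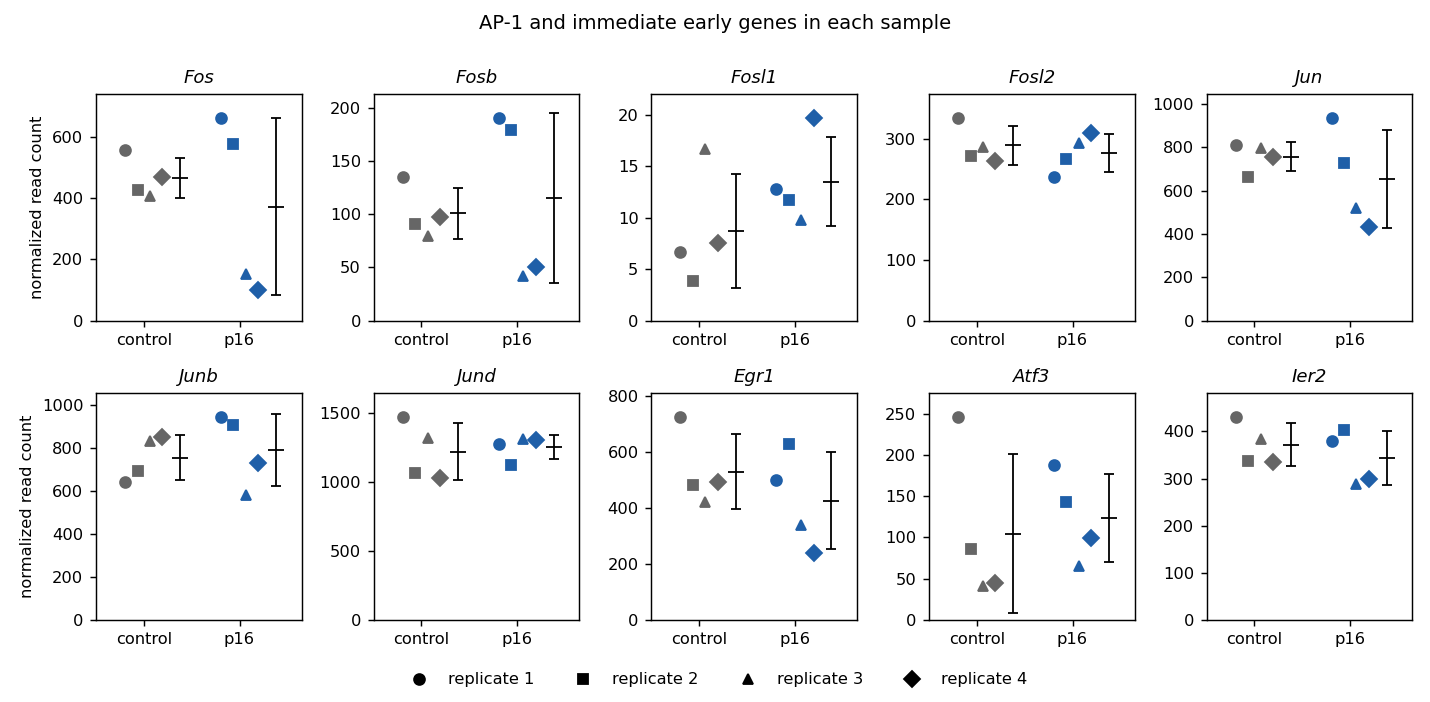
Normalized read counts of the 10 members in each of the 8 libraries (symbols give the replicate number, grey control and blue p16, and the bar to the right of each group is the mean ± SD, n = 4). Fos and Fosb in the p16 group split into 2 libraries above and 2 below every control.

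Among the Fos family, Fos (ENSMUSG00000021250, chromosome 12 from 85473890 to 85477273 of GRCm38, plus strand), the prototype member and a marker of recent stimulation, stood at 557.1, 426.1, 407.6 and 469.0 in control replicates 1 to 4. In the libraries labelled p16 replicates 1 to 4 it stood at 660.4, 576.2, 151.6 and 98.7. The first 2 of these were above and the last 2 below every control, so no p16 value lay within the control range. The group means were 465 ± 66.6 (SD, n = 4) for controls and 372 ± 288 (SD, n = 4) for p16, and the log2 fold change was -0.74 (standard error 0.46, 95% interval -1.72 to 0.23, limma adjusted p = 0.474). An exact two-sided permutation test gave p = 0.486, where 4 libraries against 4 allow 0.0286. The highest value was 1.37 times the lowest among controls and 6.69 times the lowest among p16 libraries. Without the library labelled p16 replicate 1 the log2 fold change was -1.16 (adjusted p = 0.217), and without p16 replicate 4 it was -0.25 (adjusted p = 0.806), and over 17 alternative settings the adjusted p of Fos lay between 0.217 and 0.949.

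Fosb (ENSMUSG00000003545, chromosome 7 from 19302696 to 19310051, minus strand), an immediate early Fos family member with a stable splice form, followed the same order of libraries in the p16 group apart from its lowest pair. Control replicates 1 to 4 had 135.0, 91.1, 79.3 and 97.8. The libraries labelled p16 replicates 1 to 4 had 190.3, 178.8, 41.7 and 50.2. Again 2 p16 libraries were above and 2 below every control. The means were 101 ± 24.0 (SD, n = 4) and 115 ± 80.2 (SD, n = 4), and the log2 fold change was -0.10 (standard error 0.41, 95% interval -0.97 to 0.77, limma adjusted p = 0.945). The mean was higher in p16 cells on the linear scale and lower on the log2 scale, and edgeR gave a log2 fold change of 0.18. It was -0.45 in limma without the library labelled p16 replicate 1, 0.27 without p16 replicate 3 and 0.19 without p16 replicate 4.

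The remaining Fos family members, often called Fra-1 and Fra-2, did not share this split. Fosl1 (ENSMUSG00000024912, chromosome 19 from 5447547 to 5455946, plus strand), a late and longer-lived AP-1 member, rested on only 3 to 24 reads per library. It had normalized counts of 6.7, 3.9, 16.7 and 7.6 in control replicates and 12.8, 11.7, 9.8 and 19.7 in those labelled p16, and the log2 fold change was 0.69 (standard error 0.38, 95% interval -0.12 to 1.50, limma adjusted p = 0.406). Leaving out 1 library gave 0.42 without control replicate 2 to 1.03 without control replicate 3. The log2 fold change was 0.77 with a pseudocount of 0.1, 0.55 in edgeR and 0.59 in DESeq2. At this depth the difference could not be told from the spread. Fosl2 (ENSMUSG00000029135, chromosome 5 from 32135801 to 32157842, plus strand), a regulator of epidermal differentiation, varied little. Its values were 333.8, 272.1, 286.5 and 262.8 in control replicates and 237.5, 267.0, 292.6 and 309.2 in the libraries labelled p16, and a log2 fold change equal to -0.06 (95% interval -0.30 to 0.18, limma adjusted p = 0.860), and 0.0075 without the library labelled p16 replicate 1. The libraries with the highest Fos in the p16 group had the lowest Fosl2.

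In the Jun family, Jun (ENSMUSG00000052684, chromosome 4 from 95049034 to 95052222, minus strand), the main partner of Fos and a target of Jun N-terminal kinases, was even among controls at 809.3, 662.2, 796.8 and 757.8. The libraries labelled p16 replicates 1 to 4 had 935.5, 726.1, 519.6 and 430.8, with 1 above and 2 below every control. The log2 fold change was -0.27 (standard error 0.18, 95% interval -0.67 to 0.12, limma adjusted p = 0.530), and without the library labelled p16 replicate 1 it was -0.47 (adjusted p = 0.175). Without p16 replicate 4 it was -0.09 (adjusted p = 0.842), and these were the ends of the range over the alternatives. Junb (ENSMUSG00000052837, chromosome 8 from 84974484 to 84978718, minus strand), an AP-1 member that restrains Jun in many settings and whose loss in mouse epidermis causes inflammation, had 641.7, 695.6, 835.2 and 852.5 in control replicates. It had 944.3, 906.5, 579.9 and 731.8 in the libraries labelled p16, and a log2 fold change equal to 0.05 (95% interval -0.27 to 0.36, limma adjusted p = 0.923) that was -0.046 without the library labelled p16 replicate 1 and 0.19 without p16 replicate 3. Here 2 p16 libraries lay above, 1 below and 1 within the control range. Jund (ENSMUSG00000071076, chromosome 8 from 70698949 to 70700616, plus strand), the member that is expressed steadily rather than on stimulation, stayed within the control range in all 4 p16 libraries. Its range was 1034 to 1472 in control and 1127 to 1315 in p16 libraries, and a log2 fold change equal to 0.05 (95% interval -0.20 to 0.30, limma adjusted p = 0.892).

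The members outside the Fos and Jun families are also immediate early genes. Egr1 (ENSMUSG00000038418, chromosome 18 from 34859823 to 34864984, plus strand), a zinc-finger factor induced by MAP kinase signalling through serum response elements, had 724.0, 480.0, 419.3 and 493.5 in control replicates 1 to 4. The libraries labelled p16 replicates 1 to 4 had 499.7, 627.7, 337.8 and 237.6, with the last 2 below every control. The log2 fold change was -0.38 (standard error 0.24, 95% interval -0.90 to 0.14, limma adjusted p = 0.500). Leaving out 1 library moved it to -0.13 without p16 replicate 4, -0.22 without control replicate 1 and -0.60 without p16 replicate 2, with adjusted p-values of 0.178 to 0.853 over the alternatives. Ier2 (ENSMUSG00000053560, chromosome 8 from 84661331 to 84662852, minus strand), an immediate early nuclear protein, showed the same 2 libraries below every control within a narrower range. It had 334.6 to 430.3 in control libraries and 380.6, 403.7, 289.1 and 299.3 in those labelled p16 replicates 1 to 4, and a log2 fold change equal to -0.12 (95% interval -0.40 to 0.15, limma adjusted p = 0.717), and leaving out 1 library gave -0.21 to -0.046.

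Atf3 (ENSMUSG00000026628, chromosome 1 from 191170296 to 191218039, minus strand) was the member that varied most among controls. Control replicates 1 to 4 had 245.5, 86.0, 40.9 and 44.3, so that the highest was 6.00 times the lowest. The libraries labelled p16 replicates 1 to 4 had 187.1, 142.9, 64.7 and 99.5, all within the control range. The log2 fold change was 0.53 (standard error 0.45, 95% interval -0.44 to 1.51, limma adjusted p = 0.644). It was 1.08 without control replicate 1 (adjusted p = 0.133) and 0.81 without p16 replicate 3, but 0.22 without control replicate 3, 0.26 without control replicate 4 and 0.30 without the library labelled p16 replicate 1. The adjusted p lay between 0.133 and 0.970 over the alternatives.

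**Figure D2:**
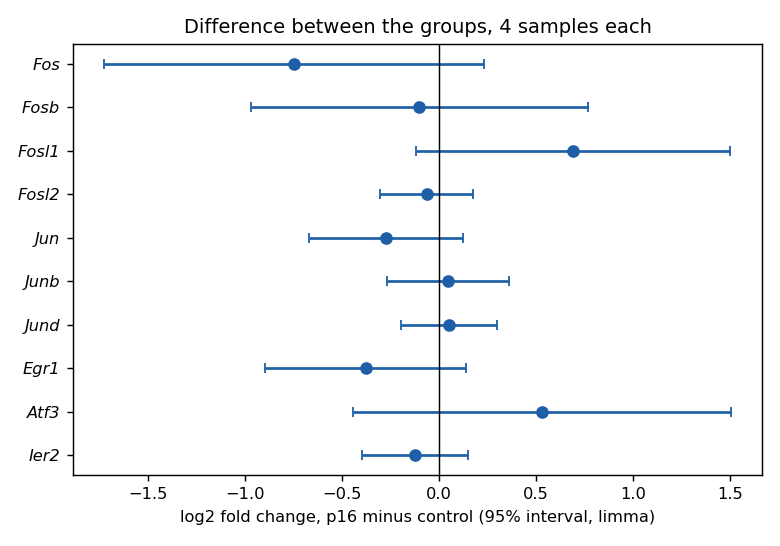
Log2 fold change of each member, p16 minus control, with its 95% interval from limma (n = 4 libraries per group). Every interval includes 0, and the widest, those of Fos and Atf3, run from -1.72 to 0.23 and from -0.44 to 1.51.

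The spread between libraries of a group was set against that of all genes. For each gene the SD of log2(normalized value + 1) within groups was divided by the SD that the limma trend gives for a gene of the same mean level. A ratio of 1 is then the usual spread. Fos had an SD of 0.98 against a trend of 0.15, a ratio of 6.32 that was the 4th largest of 12782 genes. Atf3 ranked 14th with a ratio of 4.58, Fosb 30th with 4.06, Egr1 65th with 3.31 and Jun 215th with 2.49. Junb had 1.85 (rank 747), Ier2 1.36, Fosl1 1.30, Jund 1.30 and Fosl2 0.99. In all, 5 of 10 members had a ratio above 2, as did 4.30% of the genes tested. Some marker lists had as large a share. A ratio above 2 was found in 6 of 9 hair-follicle stem-cell markers, 4 of 7 differentiated keratinocyte markers and 4 of 5 tested melanocyte markers. Each of the other marker lists, basal keratinocytes among them, held 0 or 1 such gene. The median ratio was 2.17 over the members and 0.97 over all genes. Without the library labelled p16 replicate 1 the ratio of Jun was 1.69 and 4 of 10 members were above 2, with 5.19 for Fos, against 4.67% of genes. Without control replicate 1 the ratio of Atf3 was 2.83, and the 5 members stayed above 2. These ratios describe the libraries and carry no test.

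**Figure D3:**
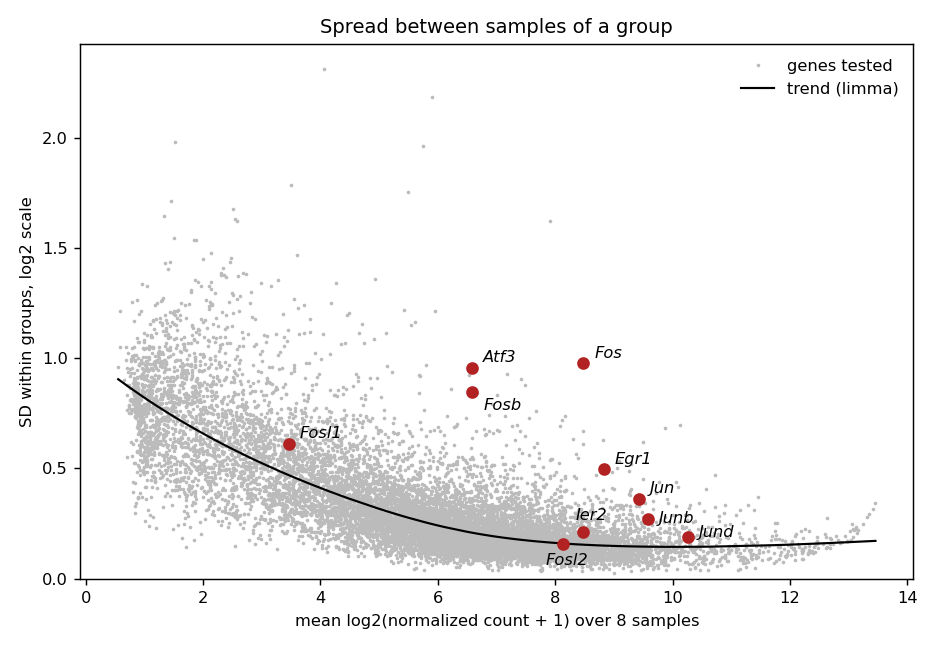
SD within groups of log2(normalized count + 1) against the mean over 8 libraries for the 12782 genes tested (grey), the limma trend (black line) and the members (red, labelled). Fos, Fosb, Atf3, Egr1 and Jun lie well above the line, whereas Fosl2 lies on it.

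The libraries that were high or low recurred from gene to gene, as read off after the values were seen. Control replicate 1 was the highest of the controls in 8 of 10 members, all but Fosl1 and Junb, and in 21.6% of all tested genes. In the p16 group replicates 3 and 4 held the lowest 2 values in 7 of 10 members, namely Fos, Fosb, Jun, Junb, Egr1, Atf3 and Ier2, and in 14.8% of all tested genes. Replicate 4 was the lowest p16 library in 3 members and in 32.1% of all tested genes, and replicate 3 in 5 members and 22.7% of genes. Fosl2 and Jund, the members that vary least, had the reverse pair lowest. Both counts were the same when reads were scaled to the total of each library in place of the deposited size factors. Summed over the members, control replicates 1 to 4 had normalized counts of 5356, 4122, 4585 and 4354, and the libraries labelled p16 replicates 1 to 4 had 5325, 4968, 3602 and 3584. These counts describe the members jointly, since members of a shared response are not independent replicates of a library.

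**Figure D4:**
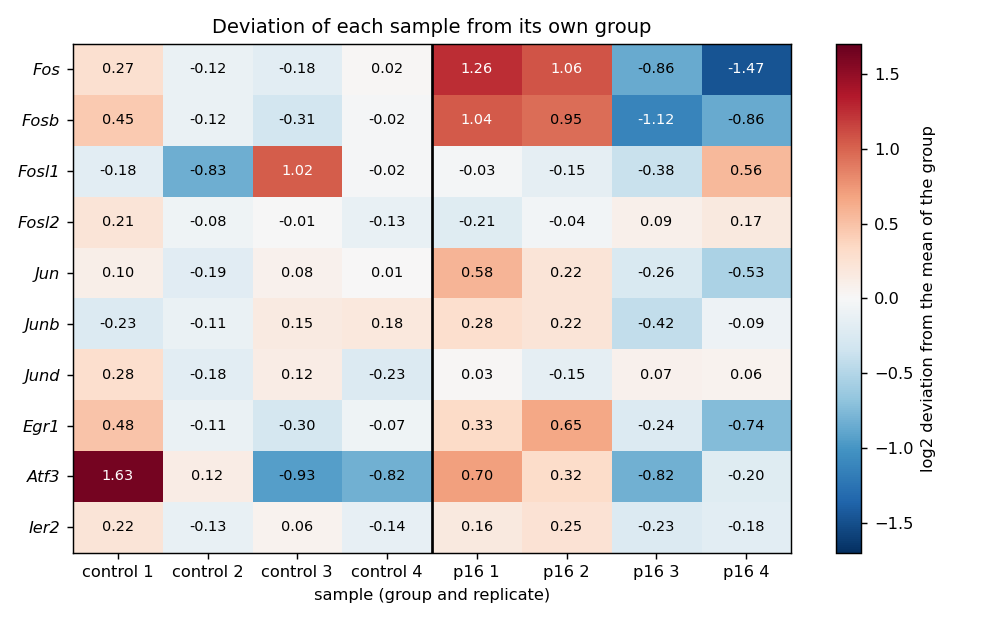
Log2 deviation of each library from the mean of its own group for the 10 members (red above, blue below). In the p16 group Fos runs from 1.26 and 1.06 in replicates 1 and 2 to -0.86 and -1.47 in replicates 3 and 4, and Atf3 is 1.63 above the control mean in control replicate 1.

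Values that a sort or a dissociation could move were set beside this order. The sum over 16 heat shock genes known to rise on dissociation, among them Hspa1a, Hsp90aa1 and Dnajb1, was 16959, 16458, 18053 and 20265 for control replicates 1 to 4. It was 15529.7, 17435.1, 16534.4 and 15726.4 for the libraries labelled p16 replicates 1 to 4. Control replicate 1 and the library labelled p16 replicate 1, the highest in the summed members of their groups, were not the highest in this sum. In the marker sums p16 replicates 3 and 4 lay at opposite ends of their group for fibroblasts (220.7 and 42.8) and hair-follicle stem cells (2733 and 1277). They were the highest pair for basal (35541 and 36675) and differentiated keratinocytes (8114.7 and 9833.7). They were the lowest pair for Langerhans and myeloid cells (1017.9 and 756.4) and T cells (3.6 and 9.0), and neither in the other lists. Control replicate 1 had the highest control sum for hair-follicle stem cells, melanocytes, fibroblasts and endothelial cells, and the lowest for basal keratinocytes. In the labels the library protocol is worded differently for replicate 3, in control and p16 alike. Without these libraries the ratio of Fos was 6.87 and 5 of 10 members had a ratio above 2. Whether sorting or dissociation contributed to the order of the libraries was not tested.

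Among genes with a mean of at least 20, the patterns over the 8 libraries most like that of Fos were found by the root-mean-square difference of log2 values, each gene centred on its own mean. The closest of 9396 genes that are no members were Fgf1, a growth factor, at 0.353, Dync2h1, a dynein heavy chain, at 0.523 and N4bp2 at 0.533, where the deviation of Fos from its own mean was 0.925. Fgf1 had 54.9, 29.5, 28.4 and 29.0 in control replicates and 42.4, 44.5, 20.4 and 7.4 in those labelled p16. Among the members Fosb was nearest to Fos at 0.416. For Egr1, whose own deviation was 0.471, the closest were Dync2h1 at 0.164, Nufip2 at 0.190 and Mtg1 at 0.205, and Jun was the nearest member at 0.280. These are descriptions over 8 libraries.

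The other genes of the pathway were read in the same fit. Of 44 further immediate early genes 41 could be tested, with 0 called higher and 1 lower, or 2.44% against the 3.86% of all genes. Their median log2 fold change was 0.07. The called gene was Pim1, a survival kinase, with 139.8 to 171.0 in p16 and 204.1 to 257.2 in control libraries (log2 fold change -0.54, standard error 0.11, limma adjusted p = 0.0172). With single libraries left out its call held in 5 of 8 fits and was lost without the library labelled p16 replicate 1 (adjusted p = 0.0664), control replicate 1 (0.0555) or control replicate 3 (0.0584), with 0.00349 to 0.0953 over the alternatives. Btg2, an antiproliferative p53 target, had -0.49 on the same scale (limma adjusted p = 0.154). Of the 41 genes, 8 had p16 replicates 3 and 4 lowest of the p16 group, as did 14.8% of all tested genes. In 23 of the 41 control replicate 1 was highest of the controls, as in 21.6% of all tested genes. Among the 6 with a spread ratio above 2, which were named after their values were seen, control replicate 1 was highest in 6. In Dusp1, Cyr61 and Nr4a1 p16 replicates 3 and 4 were lowest, and in Ctgf, Nfkbia and Ier3 they were not. Ctgf, a secreted matricellular protein, had the largest ratio at 5.13, and p16 replicate 3 was the highest of its group at 259.8. Dusp1, the phosphatase that switches MAP kinases off, had 728.5, 483.8, 375.0 and 383.5 in control replicates and 809.2, 552.0, 272.2 and 276.3 in those labelled p16 replicates 1 to 4. Its spread ratio was 4.19, against 4.04 for Cyr61 and 3.50 for Nr4a1.

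Of 18 AP-1 dimer partners and related bZIP genes 13 could be tested, with 0 called higher and 1 lower, or 7.69% against the 3.86% of all genes. Cebpb, which drives keratinocyte differentiation and pairs with Atf and Fos proteins, had 842.0 to 980.8 in control and 580.5 to 791.8 in p16 libraries (log2 fold change -0.42, standard error 0.10, limma adjusted p = 0.0339). With single libraries left out in turn this call held in 2 of 8 fits. The adjusted p ran from 0.00809 to 0.135 over the alternatives and was highest without the library labelled p16 replicate 1. Jdp2, a repressor that pairs with Jun, had -0.81 (limma adjusted p = 0.0931). Of 37 upstream kinases and factors, all tested, 2 were called higher and 0 lower, or 5.41% against the 3.86% of all genes, with a median of 0.0044. Spry1, an inhibitor of receptor tyrosine kinase signalling, had 111.5 to 179.5 in control and 224.9 to 365.4 in p16 libraries (log2 fold change 1.03, standard error 0.17, limma adjusted p = 0.00285), and Spred2, of a related family, had 177.1 to 238.3 in control and 284.6 to 296.7 in p16 libraries (0.50, standard error 0.11, adjusted p = 0.0158). The call for Spry1 held in each of the 8 fits without a library. That for Spred2 held in 5 and was lost without the library labelled p16 replicate 1 (adjusted p = 0.0510), control replicate 1 (0.0565) or control replicate 3 (0.0507), with 0.00163 to 0.110 over the alternatives. Other inhibitors of this list had values below 0 that did not pass the test, with -0.95 for Spry4 (limma adjusted p = 0.288) and -0.98 for Dusp4 (0.272).

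Of the 16 heat shock genes 0 were called in either direction in limma, where 3.86% of all genes were called. An unadjusted p under 0.05 was found in 2 of the 16 and in 15.9% of all genes. The median log2 fold change was -0.13, and 12 of 16 were negative. The smallest p-values were those of the mitochondrial chaperone Hspd1 (log2 fold change -0.33, limma adjusted p = 0.253) and of Hsp90aa1 (-0.45, adjusted p = 0.307).

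Of 37 genes known as AP-1 targets in keratinocytes, 29 could be tested, with 4 called higher and 3 lower, or 24.1% of those tested where 3.86% of all genes were called, and a median of -0.20. Ccnd1, which encodes cyclin D1, had 612.2 to 905.8 in control and 1210 to 1425 in p16 libraries (log2 fold change 0.88, standard error 0.11, limma adjusted p = 0.000452). Tgm3, a transglutaminase of the cornified layer, had 14.8 to 65.1 and 99.1 to 240.9 (2.01, standard error 0.36, adjusted p = 0.00588). In the other direction Sprr1a, a cornified envelope precursor, had 603.2 to 1297 and 368.3 to 435.7 (-1.11, standard error 0.17, adjusted p = 0.00225). Krt6a, a keratin of hair follicles and of stressed epidermis, had 1427 to 4492 and 351 to 1027 (-1.89, standard error 0.33, adjusted p = 0.00477). These 4 calls held in all 8 fits with single libraries left out. Lor and Tgfb1 were also called higher and Ivl lower. The list holds genes of the cornified envelope and of hair follicles, whose marker sums are given above, and the part of cell composition in these differences was not tested. In Ccnd1, Tgm3, Sprr1a and Krt6a the values of the groups did not overlap, as in 9.83% of all tested genes. These 4 were picked by adjusted p, so this adds no separate support.

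**Figure D5:**
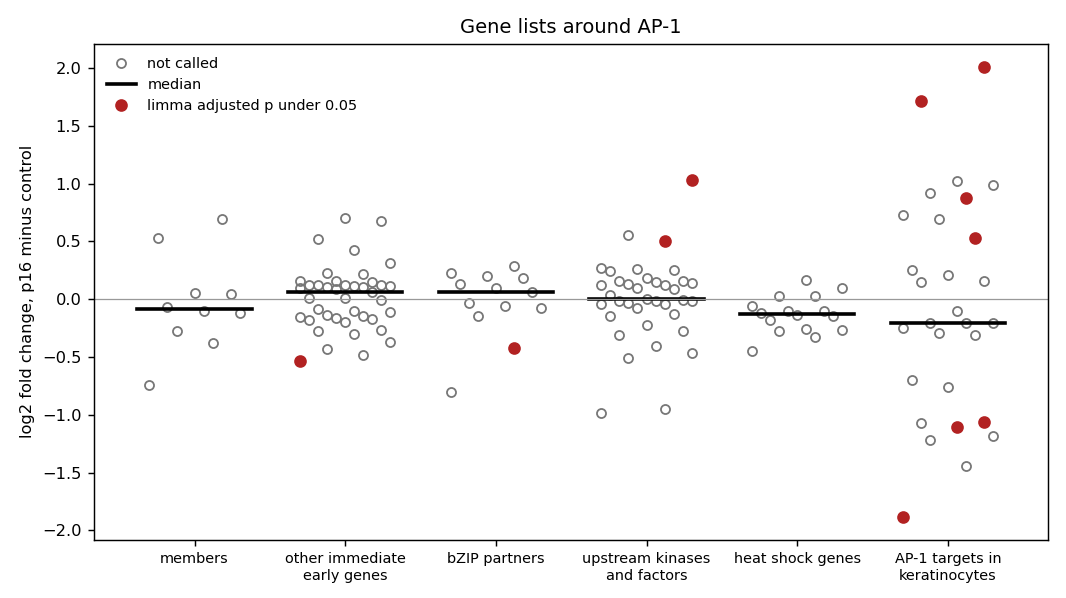
Log2 fold change, p16 minus control, of each tested gene of 6 lists (open circles not called, filled circles limma adjusted p under 0.05, black bars medians). The members hold 0 filled circles, and the AP-1 targets hold 4 above and 3 below 0.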

How the data were processed

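GFP+ keratinocytes of 8 pooled samples, 4 control and 4 p16, were profiled by mRNA-seq. The replicates came from several independent experiments by the methods, but the experiment of each sample is not given in the sources used here and could not be a term in the fit. The authors used a modified CEL-Seq2 protocol that reads 3′ ends, removed adapters with Cutadapt and mapped to GRCm38 with TopHat2, and the submitters' processing notes also name HTSeq and DESeq2. Each deposited signal value is a read count over the size factor of its library, given to 1 decimal. For their own comparison the authors deposited a test score, a p-value and an adjusted p-value per gene and a fold change, which were not used. Dividing by the value of 1 read gave whole reads for 100% of values (tolerance 0.05 of the deposited unit). Depth was 1760953 to 3414362 reads, and where a symbol had several entries the one with the most reads was used. Whether molecular identifiers were collapsed is not given in the sources used here, and the depth covers counting error alone.

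The test was limma 3.58.1 in R 4.3.3, with eBayes and a trend, applied to log2(normalized value + 1) of 12782 genes whose mean was at least 1, without covariates, with Benjamini-Hochberg adjustment over them and a call at an adjusted p under 0.05. In simulated counts known genes were changed. Of those changed by 1 on the log2 scale limma called 85%, and of those changed by 2 it called 100%. Of its calls 3.14% were unchanged genes. The changed genes were drawn at random from well-read genes, so these rates do not describe the members of wide spread or Fosl1. Alternatives were another pseudocount, other filters, a replicate block, each sample or replicate 3 of both groups left out, total count scaling, an unadjusted threshold, and edgeR 4.0.16 and DESeq2 1.42.0 on the recovered reads. The spread without each sample and the order of samples after scaling to total reads were added after the data were seen. The members and the gene lists were chosen with earlier results of these data known. Named genes were all members, up to 4 called genes of each pathway list by adjusted p, or the 2 smallest unadjusted p-values where fewer than 2 were called, and the 3 genes most like Fos and Egr1. Lor, Tgfb1, Ivl, Spry4, Dusp4, Ctgf, Nfkbia, Ier3, Dusp1, Cyr61 and Nr4a1 were named after their values were seen. Coordinates are those of GENCODE M21, and sequences those of RefSeq.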

Additional observations from a re-analysis of the deposited data

How the results depend on the processing

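The members stayed at 0 called higher and 0 called lower under every alternative run, namely another pseudocount, filters and scaling, the replicate block, edgeR, DESeq2, an unadjusted p and each sample left out. The direction of 4 members near 0 turned. The log2 fold change of Fosb (-0.10) was 0.17 without replicate 3 of both groups, 0.18 in edgeR, 0.19 in edgeR without a filter and 0.19 in DESeq2, and leaving out 1 sample gave -0.45 to 0.27. With 1 sample left out Fosl2 (-0.06) lay between -0.12 and 0.0083, Junb (0.05) between -0.046 and 0.19, and Jund (0.05) between -0.024 and 0.15. Over all genes limma called 159 higher and 334 lower. Leaving out 1 sample gave 69 to 196 and 177 to 343, with 69 and 192 without the library labelled p16 replicate 1, 86 and 177 without control replicate 1, and 99 higher without p16 replicate 3. Without replicate 3 of both groups the counts were 66 and 157, and at an unadjusted p 897 and 1141. The causes were not tested, except that fewer samples enter these fits.

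Among the lists, an unadjusted p gave 1 higher and 3 lower for the other immediate early genes, 2 lower for bZIP partners, 4 higher and 3 lower for upstream kinases and factors, 2 lower for heat shock genes, and 7 higher and 5 lower for AP-1 targets. Without replicate 3 of both groups the other immediate early genes had 0 lower, bZIP partners 0 lower, and upstream factors 1 higher. With 1 sample left out, lower calls ranged from 0 to 2 for the other immediate early genes and 0 to 1 for bZIP partners, and higher calls from 1 to 2 for upstream factors.

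Whether the replicate numbers shared by the groups pair the samples could not be decided. Correlations of same-numbered deviations from the group means were 0.05, 0.0044, 0.05 and 0.08 for numbers 1 to 4. Those of unlike numbers ran from -0.10 to 0.06. None was over 0.1, and not every sample correlated best with its own number. Values this small over all tested genes cannot tell whether samples of the same number shared an experiment. With the replicate block limma called 216 genes higher and 392 lower, where the main fit called 159 and 334. It called 0 members, and the limma adjusted p of Atf3 was 0.176.

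With 4 samples per group the widest 95% intervals, such as -0.97 to 0.77 for Fosb, hold changes of either sign, and Fosl1 rests on 3 to 24 reads per library.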
